A study of Mus musculus with 12 samples.

Results

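T cells and natural killer (NK) cells patrol the liver sinusoids, and in a whole-liver RNA extract their genes report on the lymphocytes caught with the tissue. T cells read peptides on other cells through the T cell receptor, whose signal leaves the membrane through the CD3 chains and the kinase LCK, with CD4 or CD8 as coreceptor. Cytotoxic T cells and NK cells kill by releasing granules that hold perforin, which opens the target membrane, and granzymes, proteases that enter the target. The 10 genes described here have these roles and were chosen with earlier results of these data known. They are Cd3e, Cd3d and Cd3g (CD3 chains), Cd8a and Cd4 (coreceptors), Lck (kinase), Gzma, Gzmb and Prf1 (granule proteins) and Nkg7 (a membrane protein of cytotoxic granules). All 10 were on the array, by 15 of its 41174 probes, out of 28781 named genes. For 9 of them a probe was well above background on at least 4 arrays, and Cd8a was the exception.

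The 12 liver samples came from male C57BL/6 mice of 3 months with a liver knockout of the glucocorticoid receptor (GR). All 3 groups share the knockout. Mice received an adeno-associated virus (AAV) labelled AAV-hGRB, named in the study's title for human GR beta, an isoform of the receptor, or AAV-GFP, which carries green fluorescent protein, or PBS, phosphate-buffered saline, with 4 arrays a group. The labels give neither the promoter or Cre line behind the knockout and the transgenes nor the dose, the time or the number of mice per array. There was no liver with intact GR, so no comparison isolates the knockout. Setting AAV-hGRB beside AAV-GFP compares the transgene with a control virus, and setting AAV-GFP beside PBS compares that virus with none. The remaining comparison, AAV-hGRB with PBS, shares arrays with both.

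Each level below is a probe's log2 intensity less the 75th percentile of its own array, so 1 unit is a doubling and values are read within a probe, not between probes. A difference between groups is in the same log2 unit. Between 54.9% and 66.3% of probes were well above background per array, and AAV-GFP replicate 3 was the dimmest array. Correlations between arrays of a group were 0.97 to 0.98 in AAV-hGRB, 0.91 to 0.98 in AAV-GFP and 0.96 to 0.98 in PBS. The labelled tissue was borne out by hepatocyte genes: Alb, which encodes albumin, averaged 10.53 ± 0.27 in AAV-hGRB livers, 10.71 ± 0.33 in AAV-GFP livers and 10.52 ± 0.30 in PBS livers (SD, n = 4 each). No probe in any comparison passed a limma adjusted p of 0.05: 0 of 26592 probes tested, or 0% in each. AAV-hGRB against AAV-GFP had a lowest adjusted p of 0.31 and 892 probes at an unadjusted p under 0.05. These were 0.999 and 448 for AAV-GFP against PBS, while AAV-hGRB against PBS had 0.102 and 1553. The replicate labels do not say that arrays came from separate mice, so these p-values measure the spread between arrays. In whole tissue, fewer cells of a type and less RNA per cell cannot be told apart.

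Of the 9 members with a tested probe, Gzma and Gzmb had the largest AAV-hGRB minus AAV-GFP differences, and none of the 9 passed the test. Gzma encodes granzyme A, a protease with trypsin-like specificity. Its 60-base probe lies at chr13:110251676-110251735 on the minus strand of mm7, the build of the array's file, and is shown because the largest difference among the tested members rests on it.
Gzma: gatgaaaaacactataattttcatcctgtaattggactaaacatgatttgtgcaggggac

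The Gzma level was -3.71, -2.63, -1.11 and -1.86 in AAV-hGRB replicates 1 to 4, -3.78, -3.49, -3.97 and -4.15 in AAV-GFP livers and -5.32, -2.94, -4.00 and -2.10 in PBS livers. AAV-hGRB replicates 2 to 4 lay above every AAV-GFP array, AAV-hGRB replicate 1 lay among them, and PBS spanned nearly the whole range. AAV-hGRB minus AAV-GFP was 1.52 (SE 0.65, 95% interval 0.10 to 2.93), a 2.86-fold ratio, with a limma unadjusted p of 0.0377 and an adjusted p of 0.998. With normexp background correction, which here adds an offset of 50 to each intensity and so shrinks differences of dim probes, it was 0.54. Against PBS the AAV-hGRB difference was 1.26 (SE 0.65, limma adjusted p = 0.876), and 0.48 with normexp. AAV-GFP minus PBS was -0.26, with an interval of -1.67 to 1.16 that allows a change in either direction. The probe was well above background on 4 AAV-hGRB, 3 AAV-GFP and 2 PBS arrays.

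Gzmb encodes granzyme B, which cleaves after aspartate and starts apoptosis in the target cell. Its level was -3.26, -2.13, -1.75 and -2.19 in AAV-hGRB livers, -3.66, -3.69, -2.84 and -3.68 in AAV-GFP livers and -5.76, -2.83, -3.12 and -2.98 in PBS livers. AAV-hGRB replicates 2 to 4 were the 3 highest of all 12 arrays, and PBS replicate 1, where the probe was not well above background, was the lowest. The differences were 1.14 (SE 0.58, limma adjusted p = 0.998) for AAV-hGRB minus AAV-GFP, 0.20 (SE 0.58, limma adjusted p = 0.999) for AAV-GFP minus PBS and 1.34 (SE 0.58, limma adjusted p = 0.842) for AAV-hGRB minus PBS. With normexp the AAV-hGRB differences were 0.51 against AAV-GFP and 0.58 against PBS. Without PBS replicate 1, AAV-GFP minus PBS was -0.49. The first 30 bases of its probe, at chr14:51126432-51126491 on the minus strand of mm7, are shown because granzyme genes lie side by side and resemble each other.
Gzmb: ccccgagaatgttatctaatgctagtcatc

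The longest run of bases that the Gzmb probe shared with a probe of any other granzyme gene was 7 of 60, with Gzmg. For the Gzma probe it was 9, with Gzmf. Over probes of all other genes the longest runs were 13 for Gzmb, with Zfp207, and 17 for Gzma, with Stau1. Probes were compared with probes alone, so pairing with transcripts of other granzyme genes was not tested. Gzmc lies next to Gzmb among coding genes, and Gzmk next to Gzma.

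Prf1 encodes perforin, and its probe was near background, well above it on 2 AAV-hGRB, 1 AAV-GFP and 1 PBS array. Its level was -5.41, -4.95, -3.73 and -4.13 in AAV-hGRB livers, -4.98, -5.49, -5.00 and -4.37 in AAV-GFP livers and -5.17, -4.23, -5.09 and -4.61 in PBS livers. The groups overlapped throughout, with AAV-hGRB holding both the highest array and the second lowest. The differences were 0.41 (SE 0.38), -0.18 (SE 0.38) and 0.22 (SE 0.38) in the order AAV-hGRB minus AAV-GFP, AAV-GFP minus PBS and AAV-hGRB minus PBS, and the first was 0.14 with normexp.

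Nkg7 is used as a marker of NK cells and cytotoxic T cells, and the array holds 2 probes for it, 334 bases apart. The brighter gave -1.15, -0.67, 0.19 and -0.89 in AAV-hGRB livers, -1.52, -1.45, -0.93 and -1.44 in AAV-GFP livers and -2.13, -1.19, -0.82 and -0.96 in PBS livers. AAV-hGRB replicate 3 was the only array with a level above 0, and AAV-GFP replicate 3 kept the groups from separating. AAV-hGRB minus AAV-GFP was 0.70 (SE 0.34, limma adjusted p = 0.998) on this probe, or 0.42 with normexp, and 1.04 (SE 0.39, limma adjusted p = 0.998) on the dimmer one. AAV-GFP minus PBS was -0.06 and -0.30 on the same pair, and AAV-hGRB minus PBS was 0.64 and 0.73. Both probes are shown because they agree in sign in all 3 comparisons, the brighter by its first 30 bases; they lie at chr7:39613682-39613741 and chr7:39613348-39613407 on the plus strand of mm7.
Nkg7, brighter: cagcagggtcatcaggatgtttggagcctg
Nkg7, dimmer: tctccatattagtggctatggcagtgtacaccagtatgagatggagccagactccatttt

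**Figure D1:**
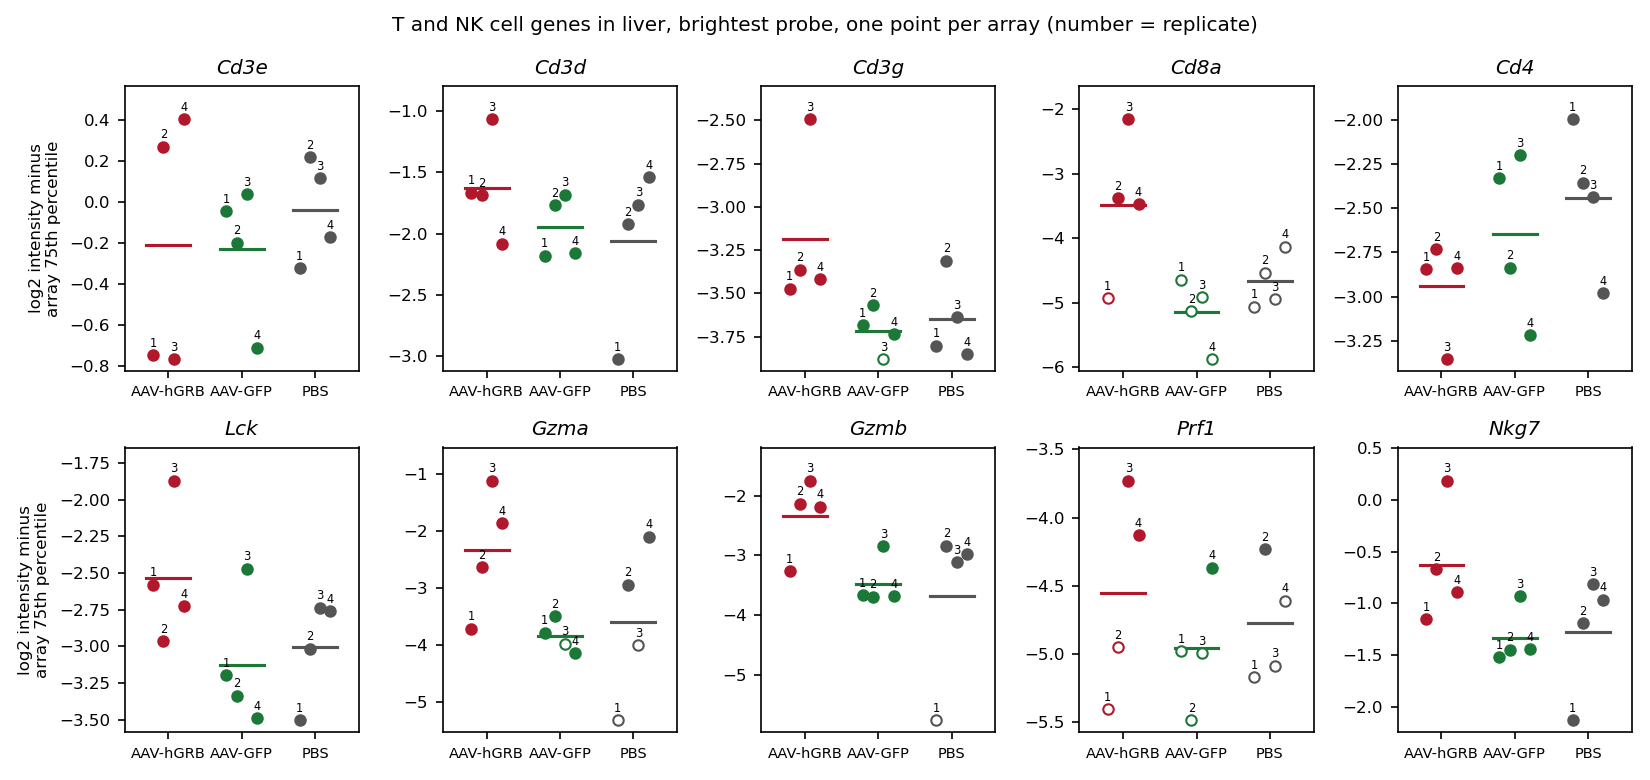
Level of the brightest probe of each of the 10 genes (log2 scale, relative to the array's 75th percentile; each panel has its own scale) for AAV-hGRB, AAV-GFP and PBS livers, 4 arrays each; filled points are well above background, open ones are not, bars are group means and numbers are replicates. AAV-hGRB replicate 3 sits at the top of most panels, and PBS replicate 1 is the low point for Gzma, Gzmb, Cd3d and Nkg7.

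The 3 CD3 chains differed in their pattern over the arrays. Cd3g, Cd3d and Cd3e are neighbours on chromosome 9 and their proteins pair as gamma-epsilon and delta-epsilon. Cd3g had levels of -3.47, -3.36, -2.49 and -3.42 in AAV-hGRB livers, -3.69, -3.57, -3.88 and -3.74 in AAV-GFP livers and -3.80, -3.31, -3.64 and -3.85 in PBS livers. Every AAV-hGRB array lay above every AAV-GFP array, as for 1.05% of all probes tested, and PBS replicate 2 overlapped AAV-hGRB. The AAV-hGRB minus AAV-GFP difference was 0.53 (SE 0.24, 95% interval 0.01 to 1.05, limma adjusted p = 0.998), and it was 0.30 without AAV-hGRB replicate 3 and 0.22 with normexp. AAV-GFP minus PBS was -0.07 (SE 0.24), and AAV-hGRB minus PBS was 0.46 (SE 0.24, limma adjusted p = 0.876).

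Cd3d had levels of -1.67, -1.69, -1.07 and -2.08 in AAV-hGRB livers, -2.18, -1.77, -1.68 and -2.16 in AAV-GFP livers and -3.02, -1.92, -1.76 and -1.54 in PBS livers. The 3 groups overlapped, and PBS replicate 1 stood lowest. AAV-hGRB minus AAV-GFP was 0.32 (SE 0.32), AAV-GFP minus PBS 0.11 (SE 0.32) and AAV-hGRB minus PBS 0.44 (SE 0.32), with limma adjusted p-values of 0.998, 0.999 and 0.944. Cd3e, on its brighter probe, had -0.75, 0.27, -0.77 and 0.41 in AAV-hGRB livers, -0.04, -0.20, 0.04 and -0.71 in AAV-GFP livers and -0.32, 0.22, 0.12 and -0.17 in PBS livers. Its AAV-hGRB arrays fell into a high and a low pair that spanned every array of the other groups. The Cd3e differences were 0.02, -0.19 and -0.17 in the same order (SE 0.30 each), so an AAV-hGRB minus AAV-GFP change from -0.64 to 0.68 lies within the 95% interval.

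The Cd3g and Cd3d probes are shown because each spans more of the genome than its 60 bases and so crosses a splice junction: the Cd3g probe covers chr9:44907978-44908562, 585 bases on the minus strand of mm7, and the Cd3d probe chr9:44920433-44920664, 232 bases on the plus strand. The Cd3e probe lies at chr9:44933516-44933575 on the minus strand without a gap. A second Cd3e probe, 4730 bases upstream of the brighter one, was well above background on no array.
Cd3g: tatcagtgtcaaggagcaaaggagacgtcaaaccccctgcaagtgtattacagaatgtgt
Cd3d: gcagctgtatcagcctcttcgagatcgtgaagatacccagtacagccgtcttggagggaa

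Lck phosphorylates the CD3 chains once the receptor is engaged. Its level was -2.58, -2.97, -1.87 and -2.73 in AAV-hGRB livers, -3.20, -3.34, -2.47 and -3.49 in AAV-GFP livers and -3.50, -3.02, -2.74 and -2.76 in PBS livers. All AAV-hGRB arrays lay above AAV-GFP replicates 1, 2 and 4, and AAV-GFP replicate 3 lay above 3 of them. The differences were 0.59 (SE 0.30, limma adjusted p = 0.998), -0.12 (SE 0.30, limma adjusted p = 0.999) and 0.47 (SE 0.30, limma adjusted p = 0.920) for AAV-hGRB minus AAV-GFP, AAV-GFP minus PBS and AAV-hGRB minus PBS. With normexp the first was 0.34.

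The coreceptor probes differed in how well they were measured. CD8 marks T cells that read class I molecules, and the array holds 3 probes for Cd8a, none of them well above background on 4 arrays. The brightest gave -4.92, -3.38, -2.15 and -3.47 in AAV-hGRB livers, -4.64, -5.13, -4.91 and -5.87 in AAV-GFP livers and -5.06, -4.53, -4.94 and -4.13 in PBS livers. It was well above background on AAV-hGRB replicates 2 to 4 and on no array of the other groups. With the lowest well-measured signal of each AAV-GFP and PBS array as a floor there, its AAV-hGRB mean was 1.99-fold that of AAV-GFP and 1.92-fold that of PBS. AAV-hGRB replicate 1, not well above background, entered at its own value, so these ratios are not strict lower bounds. Such a ratio allows for the floor and not for the spread between arrays. In a limma fit of all probes, dim ones included, the SE was 0.49. Adjusted p-values from that fit were 0.901 against AAV-GFP and 0.89 against PBS. AAV-hGRB replicate 1 lay within the AAV-GFP range. Without AAV-hGRB replicate 3 the AAV-hGRB minus AAV-GFP difference fell from 1.66 to 1.21. A second probe, printed in 10 spots per array, gave -4.35, -4.17, -3.21 and -4.10 in AAV-hGRB livers, -4.94, -5.61, -4.42 and -5.48 in AAV-GFP livers and -5.11, -4.44, -4.82 and -5.33 in PBS livers. It was well above background on no AAV-GFP or PBS array, so its order against them was not measured. All 10 of its spots were well above background on AAV-hGRB replicates 2 to 4, against 3 spots on AAV-hGRB replicate 1, at most 1 on an AAV-GFP array and at most 4 on a PBS array. With the same floors the ratios were 1.45-fold against AAV-GFP and 1.47-fold against PBS, again with AAV-hGRB replicate 1 at its own value. For this second probe the limma fit of all probes gave an SE of 0.34, with adjusted p-values of 0.901 and 0.89.

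These ratios hold for the deposited processed signal. Normexp background correction, with its offset of 50, was tried on Cd8a after seeing the data. The AAV-hGRB means of the 2 probes then exceeded those of AAV-GFP by 0.39 and 0.30 log2 units. They exceeded those of PBS by 0.36 and 0.33. Probe 3 of Cd8a was well above background on 1 AAV-hGRB, 0 AAV-GFP and 2 PBS arrays and averaged -5.31 ± 0.64 in AAV-hGRB livers, -5.28 ± 1.10 in AAV-GFP livers and -4.70 ± 0.90 in PBS livers (SD, n = 4 each). All 3 are shown since they differ in where they were measurable: probe 3 lies 3445 bases upstream of probe 1, the brightest, and 5026 upstream of probe 2, in the order of transcription. Their places in mm7, all on the plus strand and in the order of their numbers, are chr6:71395267-71395326, chr6:71396848-71396907 and chr6:71391822-71391881. The first 2 are given by 30 bases.
Cd8a, probe 1: ttaggtatgtgtctttagtatagcatgctt
Cd8a, probe 2: cctgaaggaactaagagtcacccatggtcc
Cd8a, probe 3: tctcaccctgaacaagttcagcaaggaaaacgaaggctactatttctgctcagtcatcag

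Cd8b1, the neighbouring gene for the other CD8 chain, was well above background on all 12 arrays and gave an AAV-hGRB minus AAV-GFP difference of -0.10 (SE 0.34, limma adjusted p = 0.998), a gene named here after its value was seen.

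CD4 marks helper and regulatory T cells, and in mice also some macrophage and dendritic cell populations. Its measurable probe, also in 10 spots, gave -2.84, -2.73, -3.35 and -2.84 in AAV-hGRB livers, -2.33, -2.84, -2.20 and -3.22 in AAV-GFP livers and -2.0, -2.36, -2.44 and -2.98 in PBS livers. The groups overlapped, and AAV-hGRB replicate 3, the highest array for most members, was the lowest of 12 for Cd4. The differences were -0.30 (SE 0.28) for AAV-hGRB minus AAV-GFP, -0.20 (SE 0.28) for AAV-GFP minus PBS and -0.50 (SE 0.28) for AAV-hGRB minus PBS, with limma adjusted p-values of 0.998, 0.999 and 0.899. A second Cd4 probe, 2305 bases downstream, was well above background on no array.

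**Figure D2:**
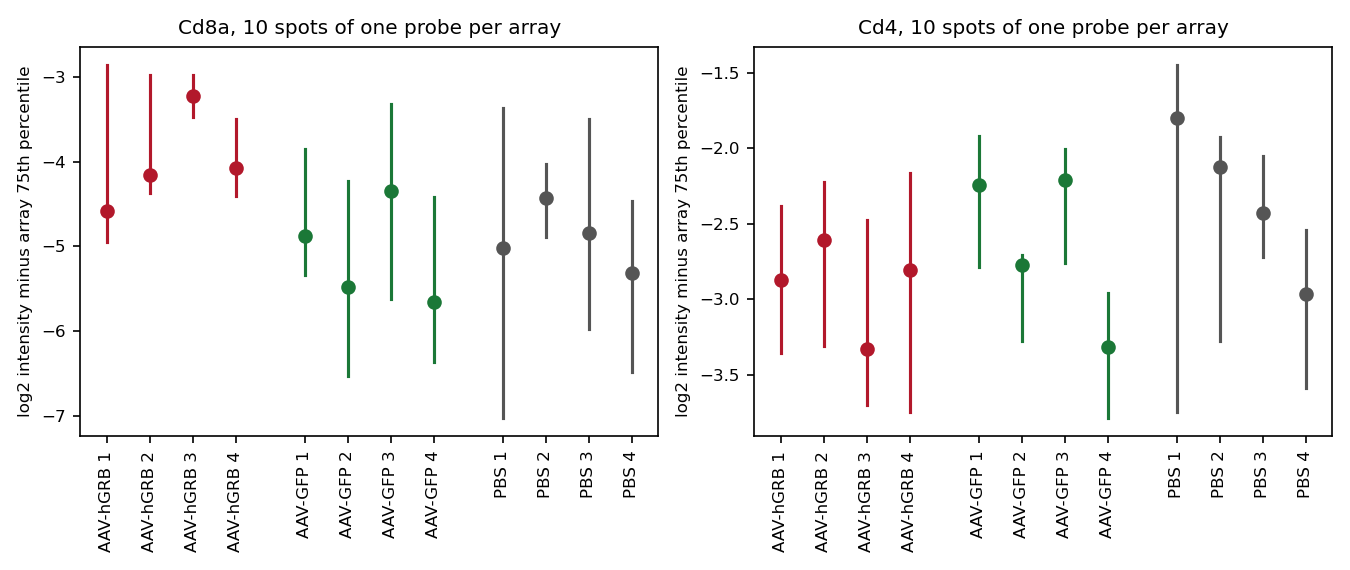
Lowest, median and highest log2 level (relative to the array's 75th percentile) among the 10 spots of 1 probe on each of 12 arrays, for Cd8a (left) and Cd4 (right), in the order AAV-hGRB, AAV-GFP, PBS. The Cd8a medians of AAV-hGRB replicates 2 to 4 are -4.16, -3.22 and -4.07, and the Cd4 median of AAV-hGRB replicate 3 is -3.33.

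Over the 9 members with a tested probe, AAV-hGRB minus AAV-GFP was positive for 8, with a median of 0.53, against 43.5% of all probes and a median of -0.05. Of the 9, 2 were higher at an unadjusted p under 0.05 (Cd3g and Gzma), as were 1.84% of all probes, and 0 were lower, as were 1.51%. AAV-GFP minus PBS was positive for 2 of 9, with a median of -0.12, against 50.6% and 0.00 for all probes, and no member reached an unadjusted p under 0.05 in either direction, where 0.793% of all probes were higher and 0.891% lower. AAV-hGRB minus PBS was positive for 7 of 9, with a median of 0.46, against 42.8% and -0.06, and 1 member, Gzmb, was higher at an unadjusted p under 0.05, as were 2.86% of all probes, and 0 were lower, as were 2.98%. Cd3g was the 1 member with every array above in AAV-hGRB against AAV-GFP, and 0 members lay fully below, where 1.94% of probes did. In AAV-GFP against PBS, 0 members lay fully above or below, with shares of 0.583% and 0.357% over all probes, and likewise in AAV-hGRB against PBS, with 2.14% and 2.45%. These comparisons share arrays, so their members' values are not independent of each other. The members were chosen with earlier results of these data known, so the counts are a description.

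The mean level of the 9 members was -2.76, -2.32, -1.77 and -2.19 in AAV-hGRB livers, -2.82, -2.87, -2.55 and -2.99 in AAV-GFP livers and -3.45, -2.40, -2.61 and -2.44 in PBS livers. AAV-hGRB replicates 2 to 4 were the 3 highest arrays and PBS replicate 1 was the lowest. AAV-hGRB replicate 3 was the highest of all 12 arrays for 7 of the 9 members and the lowest for the other two, Cd3e and Cd4. PBS replicate 1 was the lowest of its group for 7. Without AAV-hGRB replicate 3 the members' median for AAV-hGRB minus AAV-GFP was 0.30, and with normexp background correction it was 0.24.

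**Figure D3:**
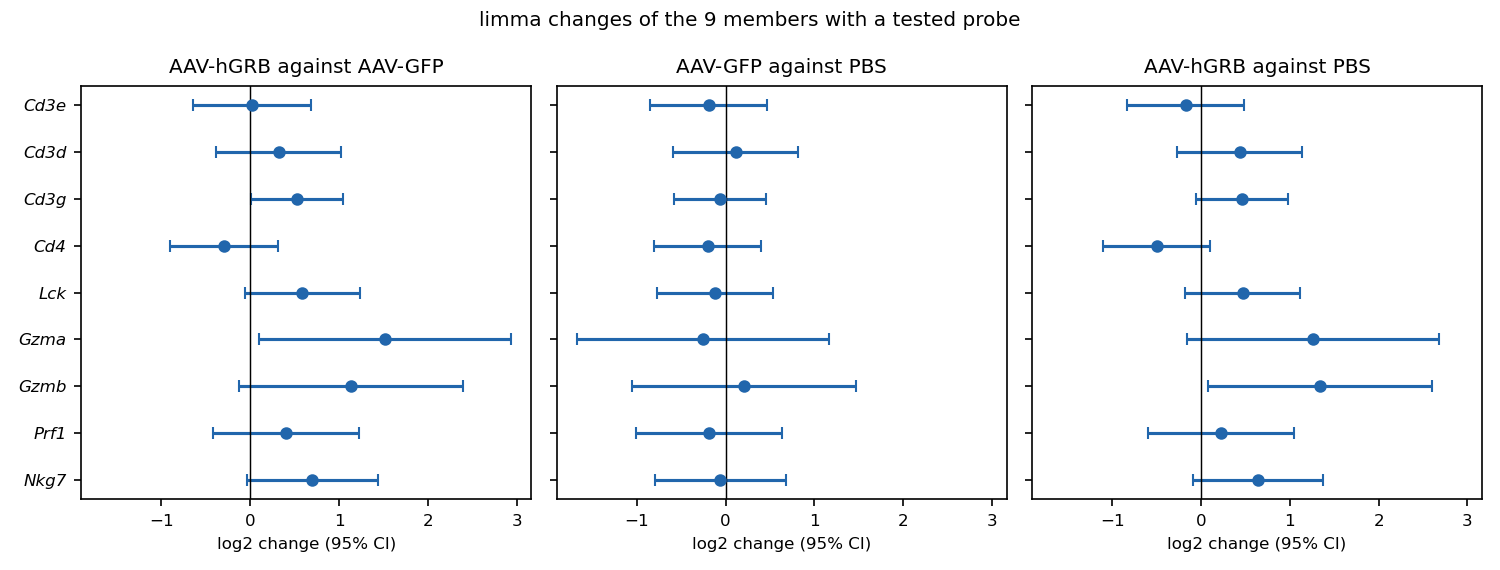
Log2 difference with its 95% interval (limma, 12 arrays in 1 fit) for the 9 tested members in the 3 comparisons, a panel each, from AAV-hGRB against AAV-GFP at the left to AAV-hGRB against PBS at the right. Gzma at 1.52 and Gzmb at 1.14 have the largest differences and the widest intervals in the first panel, and the values of the second panel run from -0.26 to 0.20.

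Arrays shared slides, and the slides did not give the same size. On the slide that held replicate 1 of AAV-hGRB and replicate 2 of AAV-GFP, the members' median AAV-hGRB minus AAV-GFP difference was 0.10, positive for 6 of 9. On the slide with replicate 3 of each group it was 1.09, positive for 7 of 9. AAV-GFP minus PBS had slide medians of -0.33, -0.48 and 0.08 on the 3 slides that held both groups, and AAV-hGRB minus PBS had -0.19 and 1.00 on 2 slides. AAV-hGRB replicates 2 and 4 shared a slide with no other group, and AAV-GFP replicate 4 was the only array of the second scan day. PBS replicate 1, the lowest array for the members' mean, was alone on its slide, as was AAV-GFP replicate 4. For those arrays sample and slide cannot be told apart.

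Across the 12 arrays, after centring each group on its mean, most members varied together. Cd3d and Nkg7 had a Pearson r of 0.88, Gzmb and Nkg7 0.86, Lck and Nkg7 0.82, Cd3d and Gzmb 0.80, and Gzma and Gzmb 0.79. Cd3e had r of -0.09 with Cd3d and -0.26 with Cd3g, its partners in the complex, and 0.49 with Cd4. Cd4 was negatively related to Gzma, at -0.57, and to Cd3d, at -0.51. The points share arrays and their scaling, and these values are a description.

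**Figure D4:**
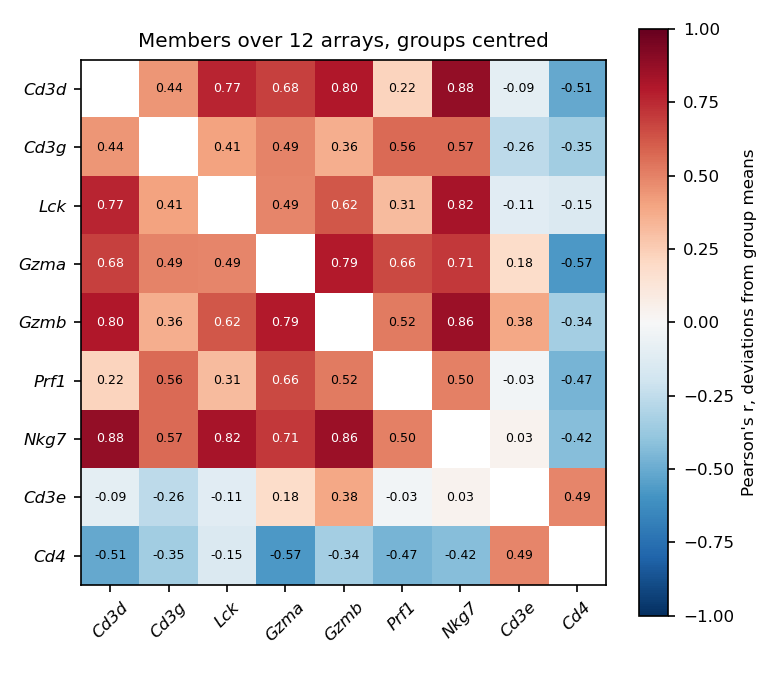
Pearson's r between members over 12 arrays after subtracting each group's mean. Cd3d, Lck, Gzma, Gzmb and Nkg7 form a positive block (0.49 to 0.88), and Cd4 is negative with every member but Cd3e.

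For a pattern shared by the 9 tested members, each was centred and scaled to SD 1 over the 12 arrays before averaging. Outside the 10 genes, those whose 12-array pattern was most like this scaled mean, among 13989 genes, were Ccl5 (r = 0.95), Lcp2 (0.91), Dock11 (0.90), Def6 (0.90), Evi2a (0.90), Cxcl9 (0.89), Dock10 (0.88) and Btk (0.88). Ccl5 is a chemokine made by activated T and NK cells among others, and Lcp2 encodes the adaptor SLP-76 of T cell receptor signalling. Btk encodes a kinase of B and myeloid cells. After centring each group on its mean, their r ran from 0.85 for Cxcl9 to 0.95 for Dock10. Their AAV-hGRB minus AAV-GFP differences ran from 0.31 for Btk to 1.24 for Cxcl9, none past the test (limma adjusted p = 0.998). The ranking r includes the differences between groups, so the sign of these values follows in part from the choice and is a description.

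Other genes of T and NK cells are given by lists that hold none of the 10, and in no list did a gene pass the test in any of the 3 comparisons. Of 20 tested genes of the T cell receptor complex and its signalling, 15 were positive in AAV-hGRB minus AAV-GFP, with a median of 0.19. Over all probes 43.5% were positive. Of the 20, 2 were higher at an unadjusted p under 0.05, as were 1.84% of all probes. The lowest p-values belonged to Fyn, a kinase related to LCK, at 0.53 (SE 0.19), Cd2, an adhesion receptor, at 0.69 (SE 0.31), and Rasgrp1, which activates RAS, at 0.54 (SE 0.28). The Cd2 value for AAV-GFP minus PBS was -0.98, and its AAV-hGRB minus PBS value was -0.29. The list's medians were -0.05 for AAV-GFP minus PBS and 0.24 for AAV-hGRB minus PBS. In AAV-hGRB minus AAV-GFP 5 of the 20 were negative. Named after their values were seen, these included Cd247 at -0.87 (SE 0.56), Zap70 at -0.67 (SE 0.38) and Themis at -0.50 (SE 0.42). In AAV-hGRB minus PBS, Zap70 was at -1.05 (SE 0.38, limma adjusted p = 0.821). It was the 1 gene of the 20 lower at an unadjusted p under 0.05, as were 2.98% of all probes. There 0 were higher, as were 2.86%.

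Transcription factors had a median of 0.22 over 7 tested genes in AAV-hGRB minus AAV-GFP. Tbx21, which encodes T-bet of type 1 lymphocytes, was at 0.40 (SE 0.30), and Tcf7 at 0.30 (SE 0.29). Further granule and killing genes had a median of 0.13 over 10 genes, 6 positive. Fasl, the ligand that triggers the death receptor FAS, was at -1.05 (SE 0.39, limma unadjusted p = 0.0207), while Srgn, the granule proteoglycan, was at 0.37 (SE 0.19) and Tnfsf10, which encodes TRAIL, at 0.41 (SE 0.28). Against PBS, Fasl in AAV-hGRB livers was at -1.15 (SE 0.39, limma adjusted p = 0.815).

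NK receptors had a median of 0.03 over 11 tested genes, 7 positive. Cd244, an activating receptor, was at 0.82 (SE 0.33) in AAV-hGRB minus AAV-GFP, but at -0.92 in AAV-GFP minus PBS. Klra3 was at 0.75 (SE 0.62) and Ncr1, which encodes NKp46, at -0.66 (SE 0.52). Klra3 was well above background on 4 AAV-hGRB, 1 AAV-GFP and 0 PBS arrays, and passed the filter through its AAV-hGRB arrays. Ncr1 was well above background on 2 AAV-hGRB, 3 AAV-GFP and 2 PBS arrays, and the NK markers Klrb1c and Klrd1 on all 12, with differences of -0.16 (SE 0.29) and 0.40 (SE 0.41).

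Checkpoint and activation genes had a median of 0.27 over 9 tested genes in AAV-hGRB minus AAV-GFP. Pdcd1, which encodes the inhibitory receptor PD-1, averaged -3.56 ± 0.51 in AAV-hGRB livers, -4.64 ± 0.93 in AAV-GFP livers and -5.39 ± 0.68 in PBS livers (SD, n = 4 each). It was well above background on 4, 1 and 0 arrays of those groups. AAV-hGRB minus AAV-GFP was 1.08 (SE 0.46, limma adjusted p = 0.998), with 3 of 4 AAV-GFP arrays not well above background. No PBS array measured it, and with the same floor as for Cd8a its AAV-hGRB mean was at least 2.05-fold that of PBS (limma adjusted p = 0.558). Pdcd1 passed the filter through its AAV-hGRB arrays. Cd274, its ligand PD-L1, was at 0.80 (SE 0.37) and Havcr2, which encodes TIM-3, at 0.51 (SE 0.37) in AAV-hGRB minus AAV-GFP.

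Chemokines that attract lymphocytes, with their receptors, had a median of 0.72 over 15 genes, with 13 positive against 43.5% of all probes. Of the 15, 5 were higher at an unadjusted p under 0.05, as were 1.84% of all probes. Cxcl10, induced by interferon and read by CXCR3, was at 1.47 (SE 0.40) and is also in the interferon list below. Every AAV-hGRB array of Cxcl10 lay above every AAV-GFP array, as for 1.05% of all probes tested. Ccl3 was at 1.74 (SE 0.60) and Ccl4 at 1.63 (SE 0.62). Lymphocyte cytokines and their receptors had a median of -0.19 over 11 genes, 4 positive, with Il12rb2 at -0.67 (SE 0.38), Il2rg at 0.75 (SE 0.45) and Il12a at -0.39 (SE 0.32).

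Values of other gene groups are given beside the members', and none of their genes passed the test. Interferon-induced genes had a median AAV-hGRB minus AAV-GFP difference of 2.01, all 12 positive and 11 higher at an unadjusted p under 0.05. Over all probes 43.5% were positive and 1.84% higher. The mean level of the interferon-induced genes was 1.04, 2.70, 2.71 and 1.42 in AAV-hGRB livers. It was -0.14 to 0.21 in AAV-GFP livers and -0.15 to 0.57 in PBS livers, so AAV-hGRB overlapped neither group. Irf7 was at 2.49 (SE 0.43, limma adjusted p = 0.31) and Ifit1 at 2.50 (SE 0.52, limma adjusted p = 0.549) in that comparison. In AAV-hGRB minus PBS the list's median was 1.78, and in AAV-GFP minus PBS it was -0.05.

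Kupffer cell and macrophage genes were positive in AAV-hGRB minus AAV-GFP for 12 of 12, against 43.5% of all probes. They had a median of 0.30, and none reached an unadjusted p under 0.05. Their mean level ranged from 2.02 to 3.13 in AAV-hGRB livers, 2.06 to 2.74 in AAV-GFP livers and 1.29 to 2.65 in PBS livers, highest in AAV-hGRB replicate 3 and lowest in PBS replicate 1, the extremes of the members' mean as well. Clec4f, a Kupffer cell lectin, was at 0.14 (SE 0.38) and Adgre1, a macrophage surface receptor, at 0.46 (SE 0.41), both well above background on all 12 arrays. Of 6 tested neutrophil genes, 4 were positive with a median of 0.56 in AAV-hGRB minus AAV-GFP. In AAV-GFP minus PBS 0 were positive, against 50.6% of all probes, with a median of -1.0. S100a8 was at 0.88 (SE 0.35) and S100a9 at 0.86 (SE 0.39) against AAV-GFP, and at -0.41 and -0.40 against PBS. The neutrophil mean level ranged from -2.62 to -2.22 in AAV-hGRB livers, -3.21 to -2.05 in AAV-GFP livers and -2.02 to -1.77 in PBS livers.

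Genes of B cells had a median of -0.06 over 8 tested genes, ranging from -0.27 to 0.92, and 3 were positive. Cd79a was at -0.27 (SE 0.37). Named after their values were seen, Cd22 was at 0.87 (SE 0.23, limma adjusted p = 0.971) and Ms4a1 at 0.92 (SE 0.50, limma adjusted p = 0.998). For Cd22 every AAV-hGRB array lay above every AAV-GFP array, as for 1.05% of all probes tested. Dendritic cell genes had 0.14, endothelial genes 0.04, stellate cell genes 0.15, cholangiocyte genes -0.69 and hepatocyte genes -0.09. The 2 first listed genes of each were at -0.16 (Flt3) and -0.13 (Xcr1), 0.32 (Pecam1) and -0.26 (Stab2), 0.28 (Lrat) and -0.06 (Des), -1.20 (Krt19) and -0.87 (Krt7), and -0.18 (Alb) and -0.26 (Ttr). The part of the interferon, macrophage and neutrophil values in the members' values was not tested.

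**Figure D5:**
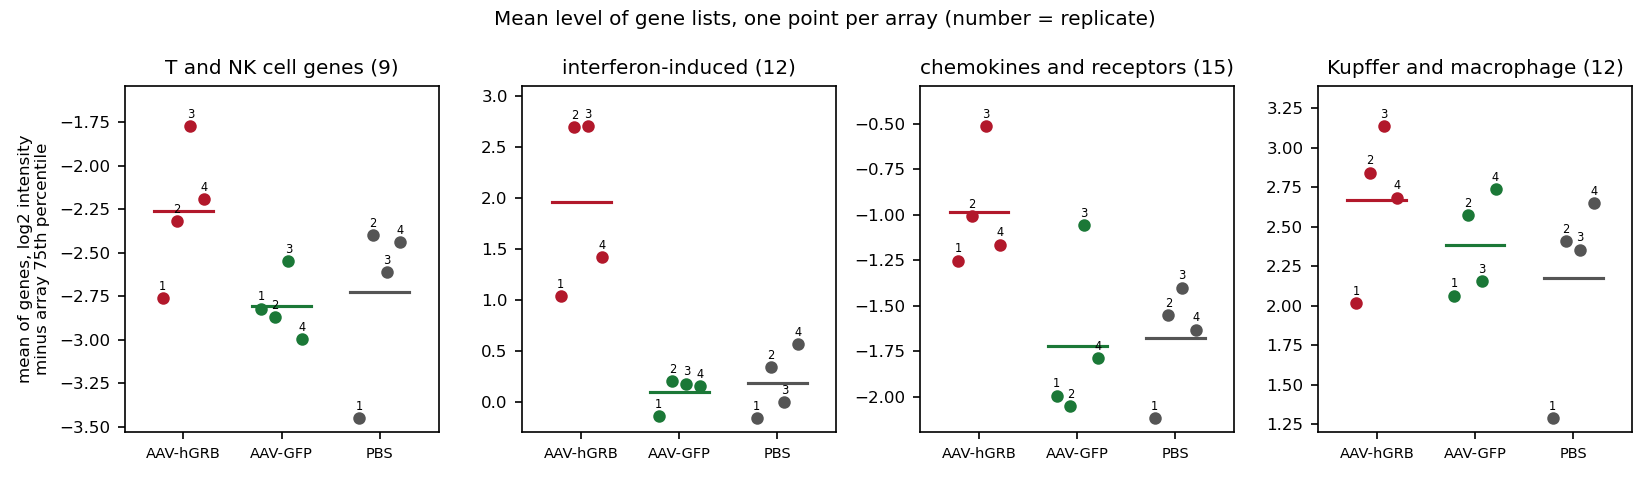
Mean log2 level (relative to the array's 75th percentile) of the 9 tested members, 12 interferon-induced genes, 15 lymphocyte chemokines and receptors and 12 Kupffer and macrophage genes on each array, AAV-hGRB, AAV-GFP and PBS from left to right; bars are group means and numbers are replicates. Only the interferon list separates AAV-hGRB from both other groups, and PBS replicate 1 is lowest in all 4 panels.

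Promoters were available from RefSeq (GRCm38.p6, 300 bases around a start site, most of them before it) for 9 of the 10 genes, with 2 for Lck. They were searched on both strands for letters that interferon and lymphocyte factors are known to read. GAAA repeated after any 2 bases, the core that interferon regulatory factors read, stood in the Gzma promoter alone among the members and in 3.44% of 32851 promoters. TTCNNNGAA, read by STAT proteins, stood in Cd3d, Gzmb and Nkg7 and in 8.3% of all. TGTGGT, read by RUNX factors, stood in Gzma, Gzmb, Lck, Nkg7 and Prf1 and in 16.8% of all. GGAAGT, read by ETS factors, stood in Cd3d, Cd3e, Lck and Prf1 and in 23.8%, and in Cd3d it overlapped the STAT letters. AGGTGTGA, read by T-box factors such as T-bet, stood in Nkg7 and in 1.28%.

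The 3 promoters below belong to the members with the largest AAV-hGRB minus AAV-GFP differences among those tested, with matches in capitals, and a match is not evidence of binding. In Gzma (chr13:113100932-113101231, minus strand) the interferon letters begin 97 bases before the start and the RUNX letters 50 before. In Gzmb (chr14:56262285-56262584, minus strand) RUNX letters begin 93 and 34 bases before the start, and the STAT letters at base 38 of the transcript. In Nkg7 (chr7:43436888-43437187, plus strand) the STAT, RUNX and T-box letters begin 220, 83 and 14 bases before the start.
Gzma promoter: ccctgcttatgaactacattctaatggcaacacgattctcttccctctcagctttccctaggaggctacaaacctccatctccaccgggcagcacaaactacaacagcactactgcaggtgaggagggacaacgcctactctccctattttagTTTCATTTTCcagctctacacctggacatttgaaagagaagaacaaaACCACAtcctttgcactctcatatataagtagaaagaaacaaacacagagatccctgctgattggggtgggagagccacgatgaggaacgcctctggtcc
Gzmb promoter: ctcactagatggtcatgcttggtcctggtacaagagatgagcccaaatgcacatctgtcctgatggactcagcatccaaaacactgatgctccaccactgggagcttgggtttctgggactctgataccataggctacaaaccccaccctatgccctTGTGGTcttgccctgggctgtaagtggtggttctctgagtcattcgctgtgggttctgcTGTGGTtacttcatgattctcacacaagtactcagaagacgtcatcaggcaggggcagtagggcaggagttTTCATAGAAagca
Nkg7 promoter: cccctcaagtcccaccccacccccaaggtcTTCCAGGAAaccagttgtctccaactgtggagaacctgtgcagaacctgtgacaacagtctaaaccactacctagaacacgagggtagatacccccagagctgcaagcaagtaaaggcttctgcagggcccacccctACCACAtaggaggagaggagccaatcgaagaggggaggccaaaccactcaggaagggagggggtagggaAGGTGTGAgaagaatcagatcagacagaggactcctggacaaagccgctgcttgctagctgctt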

How the data were processed

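Liver RNA (500 ng) was labelled with Cy3 and hybridised to 1-colour Agilent mouse arrays, 12 arrays of 45018 spots. Scanner files were made with Agilent Feature Extraction 9.5, per the submitters' processing notes. The deposited intensity used is the processed signal, from which a spatial background surface had been subtracted, per the file headers. The deposited series matrix held the same intensity values (540216 of 540216 equal within a relative difference of 1e-06). From these, log2 of the processed signal minus each array's 75th percentile was computed; the 1639 control spots were left out, spots flagged as outliers were left out where another spot of the probe remained, and spots of a probe were averaged. Probes well above background on at least 4 arrays (26592) entered 1 limma 3.58.1 fit (R 4.3.3) over the 3 groups, with Benjamini-Hochberg adjustment over all of them and a threshold of 0.05. The method was tested on simulated data.

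Gene symbols came from RefSeq tables for 23082 probes and otherwise from the files. Each gene is represented by its brightest probe. Named genes are the members, the 3 genes of lowest p in AAV-hGRB against AAV-GFP from each T and NK cell list, the 2 first listed tested genes of each other cell type, the 8 genes nearest in pattern, and Irf7 and Ifit1; a few items that this rule or the probe sequences would give are not reported here. Members and lists were chosen with earlier results of these data known. Probe positions are those of the array files (mm7); exon and intron annotation of that build was not used here. Alternatives changed the scaling, background correction, filter, slide, replicate block, samples fitted, probe choice and source, and left out each array; the Cd8a alternatives were added after seeing the data. The normexp alternative added an offset of 50 to each intensity before log2, which shrinks the log2 differences of dim probes. The parts of the correction and of the offset were not separated. The number of arrays limits the precision.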

Additional observations from a re-analysis of the deposited data

Results flagged for a closer look

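Of 33 sets of 4 arrays examined (a probe in a group), 4 held a member value that lay apart from the rest of its group by a gap that exceeds Dixon's 95% critical value for the group's range, a distance that chance gives in about 1 in 20 groups. Cd3g in AAV-hGRB replicate 3 was -2.49, above the -3.47 to -3.36 of the other AAV-hGRB arrays. Gzmb in AAV-GFP replicate 3 was -2.84, above -3.69 to -3.66 in the others of that group, and the brighter Nkg7 probe on the same array was -0.93, above -1.52 to -1.44. On that array, the dimmest of the 12, the dimmer Nkg7 probe was -3.87, below the -3.45 to -3.07 of the other AAV-GFP arrays. Gzmb in PBS replicate 1 was -5.76, below -3.12 to -2.83 in the other PBS arrays.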

How the results depend on the processing

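No probe passed the limma threshold under any of the alternatives run in any comparison, and the members' median kept its sign throughout. Depending on the setting it ran from 0.24 (normexp) to 0.71 (slide as a fixed block) for AAV-hGRB minus AAV-GFP, from -0.18 to -0.01 for AAV-GFP minus PBS and from 0.32 to 0.52 for AAV-hGRB minus PBS. Leaving out single arrays gave 0.30 (without AAV-hGRB replicate 3) to 0.63, -0.29 (without PBS replicate 1) to -0.02, and 0.25 (without AAV-hGRB replicate 3) to 0.55. Testing all 41174 probes moved the all-probe median for AAV-hGRB minus AAV-GFP to -0.14. For AAV-hGRB minus AAV-GFP, 7 of 9 members kept their sign under every alternative, for AAV-hGRB minus PBS 7, and for AAV-GFP minus PBS 1. Signs turned in AAV-hGRB minus AAV-GFP for Cd3e, at -0.0089 with quantile normalization, -0.64 with slide as a fixed block and -0.19 to 0.21 without single arrays (below 0 without AAV-GFP replicate 4, AAV-hGRB replicate 2 or AAV-hGRB replicate 4), and for Cd4, at 0.070 with normexp. In AAV-GFP minus PBS they turned for Nkg7 (4.7e-05 with quantile normalization), Cd3g (0.058) and Prf1 (0.062) with normexp, and for Cd3d (-0.14), Cd4 (0.14) and Gzmb (-0.42) with slide as a fixed block. Without single arrays the values there ran from -0.34 to 0.094 for Nkg7, -0.49 to 0.48 for Gzmb, -0.34 to 0.0030 for Lck, -0.21 to 0.29 for Cd3d, -0.13 to 0.047 for Cd3g and -0.83 to 0.24 for Gzma. In AAV-hGRB minus PBS they ran from -0.38 to 0.015 for Cd3e and -0.053 to 0.51 for Prf1. The cause was not tested. The 2 Cd8a probes measurable on AAV-hGRB arrays alone were recomputed under median, quantile and normexp settings and without each array, but not with slide or replicate blocks; against AAV-GFP they ran from 0.39 to 2.14 and 0.30 to 1.39, lowest with normexp. Prf1 could not be tested under the stricter filter. With the replicate number as a block the members' median was 0.53, -0.12 and 0.46, and 0 probes were called. Same-numbered arrays had correlations of deviations of -0.43 to 0.59, and 4 of 12 arrays correlated best with their own number. These values cannot decide whether the numbers pair the samples, since a pairing need not show in them. Depth on arrays is signal over background, which limits Cd8a and Prf1 most.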
